A study of Homo sapiens with 18 samples.

Results

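MAVER cells exposed for 6 h to the agent labelled PU were set directly against MAVER cells exposed for 6 h to IB, to ask how transcript levels differ between these treatments. The samples were chosen by group label, which gave 6 of the 18 RNA sequencing libraries of the series, 3 with PU and 3 with IB. The genes were all 11099, of 25369 listed, whose mean reached 10 normalized counts over the 12 MAVER libraries. MAVER is a human cell line of mantle cell lymphoma, a B cell cancer marked by overexpression of cyclin D1. PU is not explained in the sources used here, and its dose is not given there, so it is used as a name only. IB was read as ibrutinib, a covalent inhibitor of the kinase BTK, at 0.4 µM. KPT, read as the XPO1 inhibitor selinexor at 1.5 µM, XPO1 being an exporter of nuclear proteins, and DMSO, the solvent control, make up the other MAVER libraries, with 3 each at the same time. They share the estimate of the spread, and DMSO levels are given beside the main pair. All results are from 1 cell line, and the cultures are described as biological replicates without a statement of how they were separated, so the p-values reflect only how far these libraries vary, which may be technical.

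The heat shock response is the cell's answer to unfolded protein in the cytosol. The transcription factor HSF1 binds repeated GAA units, the heat shock elements, in the promoters of chaperone genes and turns them on. Antigen receptor signalling in B cells runs from CD79A and CD79B through the kinases SYK and BTK to PLCG2 and protein kinase C beta, and from there to NF-kB. Other branches lead to ERK, whose early targets include EGR1, and to AKT, which holds back FOXO factors. Mantle cell lymphoma often depends on this pathway, and ibrutinib acts at BTK.

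Of the 11099 genes, 6118 (55.1%) differed between PU and IB libraries, 3052 (27.5%) being higher and 3066 (27.6%) lower with PU. The test was limma on log2(normalized count + 1), and a gene was called at a Benjamini-Hochberg adjusted p under 0.05 over all genes tested. The large differences were uneven in direction. At least 2-fold differences were called for 361 genes higher with PU (3.25%) and for 174 lower (1.57%), and at least 4-fold differences for 55 higher (0.496%) and 3 lower (0.027%). The median log2 difference, PU minus IB, was 0.0052, and the 5th and 95th percentiles were -0.69 and 0.81, with a median standard error (SE) of 0.079. PU and IB libraries did not overlap for 6638 genes (59.8%), with PU above IB for 3353 (30.2%) and below it for 3285 (29.6%). An exact permutation test of a single gene, 3 libraries against 3, cannot go below a two-sided p of 0.1. In these bulk libraries, fewer cells that express a gene and less of its RNA per cell cannot be told apart.

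**Figure D1:**
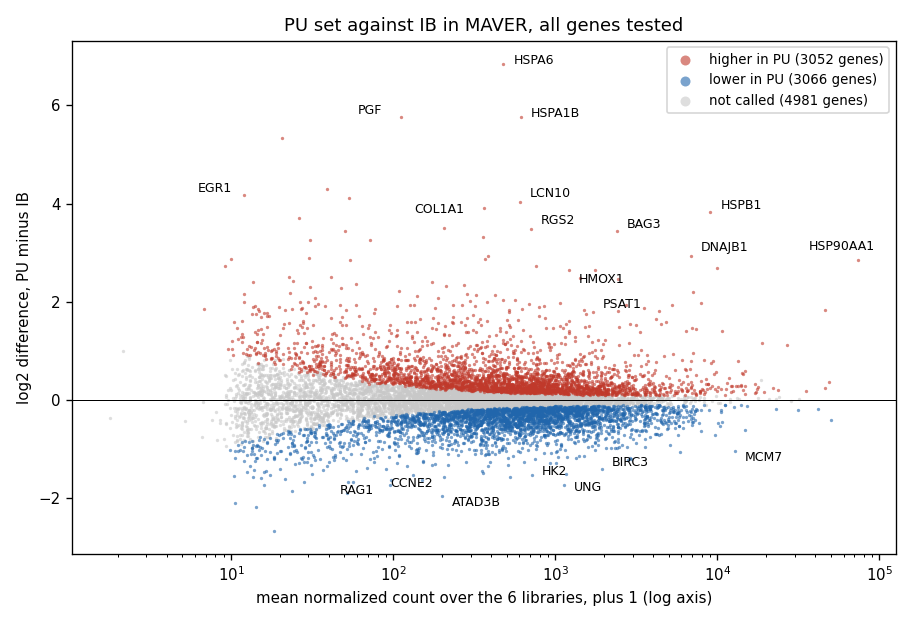
Log2 difference, PU minus IB, of each of the 11099 genes tested (vertical axis) against its mean normalized count over the 6 libraries, plus 1 (horizontal log axis). Red points are the 3052 genes called higher with PU, blue points the 3066 called lower and grey points the others; the upper side reaches 6.84 (HSPA6).

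Recovered depth was 8035123 to 17040599 reads in PU libraries and 8415254 to 9810362 in IB libraries. Pairs of replicates correlated at 0.993 or more across genes on the log2 scale, and PU and IB libraries at 0.9714 or less. RNA45S5, the ribosomal RNA precursor, was at 15476 to 32274 normalized counts with PU, highest in replicate A, and at 7919 to 20743 with IB. Markers of B cells and of mantle cell lymphoma were present in all 6 libraries, among them CD79A at 4525 to 5160, PAX5 at 2210 to 3183, SOX11 at 608 to 734 and CCND1 at 41819 to 57590.4 normalized counts. Of 14 T and NK cell markers 9 were at 0 in all 6 libraries, CD3D, CD3E, CD2 and CD8A among them, and of 10 myeloid markers 7, S100A8, S100A9 and MPO among them. Summed levels were 119 to 144 with PU, against 83.8 to 87.7 with IB, for T and NK markers, nearly all from PRF1, and 12.1 to 26.1 with PU, against 10.6 to 14.9 with IB, for myeloid markers. BTK, the target of ibrutinib, had 2544, 2476 and 2382 normalized counts in PU libraries, against 2579.6, 2672 and 2483 in IB libraries. Its groups overlapped, and the log2 difference of -0.063 ± 0.043 (SE) was not called (limma adjusted p = 0.215), although scaling every library to the same total (equal totals) gave -0.11 (adjusted p = 0.0259).

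Many heat shock genes were higher with PU, HSPA6 by the widest margin. Over 5 lists of heat shock genes with 82 members tested, 47 were higher with PU, 28 of them by at least 2-fold. Another 19 were lower, 0 of them by at least 2-fold, and 16 were not called. Over all genes tested 27.5% were higher and 27.6% lower, with 3.25% higher and 1.57% lower by at least 2-fold. The counts of every list below stand beside these shares, and a count near them says nothing particular about its list. HSPA6, a strictly stress-inducible HSP70, had 951, 936 and 954 normalized counts in PU libraries, against 6.74, 6.70 and 8.50 in IB libraries. HSPB1, the small heat shock protein HSP27, had 16169, 16958 and 17505 in PU libraries, against 1376, 1214 and 1007 in IB libraries. HSP90AA1, the inducible cytosolic HSP90, had 128494, 135668 and 126139 in PU libraries, against 17584, 18324 and 18269.9 in IB libraries. In each of these genes the PU libraries lay far above all IB libraries, with log2 differences of 6.84 ± 0.24, 3.83 ± 0.06 and 2.85 ± 0.038 (SE; limma adjusted p = 2.03e-25, 5e-38 and 2.75e-40). DMSO libraries stood at 13.2 ± 4.96, 1402 ± 33.3 and 21315 ± 565 for the same genes (SD, n = 3), below every PU library.

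The promoters of 4 chaperone genes are shown because, of the heat shock members named by the selection rule (the 4 smallest p of a list, and fixed genes) whose window holds the classical heat shock element, these had the smallest p. The element was read as GAA, any 2 bases, TTC, any 2 bases, GAA, on either strand, in the RefSeq window from 250 bases before to 50 bases after the start site (300 bases, GRCh38.p14). The windows are chr14:102086995-102087294 (- strand) for HSP90AA1, chr6:44247693-44247992 (+ strand) for HSP90AB1, chr9:33025023-33025322 (+ strand) for DNAJA1 and chr2:197499791-197500090 (- strand) for HSPD1. Letters run 5′ to 3′ along the gene's strand, and capitals mark the element.
HSP90AA1: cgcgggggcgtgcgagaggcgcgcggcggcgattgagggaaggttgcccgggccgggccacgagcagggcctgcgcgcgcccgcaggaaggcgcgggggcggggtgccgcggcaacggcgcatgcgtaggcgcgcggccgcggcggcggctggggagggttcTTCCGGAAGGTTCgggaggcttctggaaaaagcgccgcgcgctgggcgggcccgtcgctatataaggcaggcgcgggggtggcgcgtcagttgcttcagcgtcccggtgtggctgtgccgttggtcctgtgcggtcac
HSP90AB1: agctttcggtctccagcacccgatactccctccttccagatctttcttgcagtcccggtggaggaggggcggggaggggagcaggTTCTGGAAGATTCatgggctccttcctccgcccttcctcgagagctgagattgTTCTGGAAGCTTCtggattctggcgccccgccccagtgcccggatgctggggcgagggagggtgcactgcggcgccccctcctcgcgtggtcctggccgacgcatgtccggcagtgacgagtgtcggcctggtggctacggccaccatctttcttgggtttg
DNAJA1: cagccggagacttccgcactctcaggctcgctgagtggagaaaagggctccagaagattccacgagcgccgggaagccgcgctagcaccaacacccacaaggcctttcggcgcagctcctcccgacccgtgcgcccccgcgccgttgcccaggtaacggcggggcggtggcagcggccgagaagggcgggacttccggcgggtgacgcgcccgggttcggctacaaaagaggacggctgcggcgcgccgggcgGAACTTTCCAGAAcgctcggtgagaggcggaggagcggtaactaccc
HSPD1: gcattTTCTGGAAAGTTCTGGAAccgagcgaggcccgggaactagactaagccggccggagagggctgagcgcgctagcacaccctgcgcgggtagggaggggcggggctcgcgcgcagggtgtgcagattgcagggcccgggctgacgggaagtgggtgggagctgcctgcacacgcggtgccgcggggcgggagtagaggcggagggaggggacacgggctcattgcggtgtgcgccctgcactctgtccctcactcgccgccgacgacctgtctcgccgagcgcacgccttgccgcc

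Counted from the start site, the first base of the element is at -88 in HSP90AA1, -165 in HSP90AB1, 4 in DNAJA1 and -245 in HSPD1. HSP90AB1 has 2 matches, and the 2 matches of HSPD1 overlap. Among all genes tested, 9004 (81.1%) had a RefSeq window, and 43 of these (0.478%) held the element. Among the 82 heat shock members 68 had a window and 9 of these held it (13.2%), all 9 being members at least 2-fold higher with PU (9 of 26 windows of 28 members, 34.6%). They are HSPA6, SERPINH1, HSP90AA1, CHORDC1, HSP90AB1, DNAJA1, HSPD1, DNAJB6 and HSPA8. Of the other 54 members 42 (77.8%) had a window, a smaller part than of the 28, and 0 of the 42 held the element. For that reason, and because the 28 were picked by the same PU and IB values, no comparison is made. Among all genes called at least 2-fold higher 17 of 269 windows (6.32%) held the element, and among those at least 2-fold lower 0 of 134. The 17 include the 9 named above, and both groups were picked by the same values, so these too are not compared. HSPA1B, HSPB1, BAG3, DNAJB1 and HSPH1, also far higher with PU, had no match in this window, which says only that these letters are not there. Other motifs searched over the same 68 windows were the CCAAT box (CCAAT, 35.3%, against 43.5% of all windows), a FOXO element (GTAAACA, 1.47%, against 3.47%), an EGR element (GCGGGGGCG, 16.2%, against 10.8%) and an ATF4 composite element (TGATGNAA, 2.94%, against 2.6%).

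HSP70 genes and their partners were higher in 9 of 17 members tested and lower in 4, with a median log2 difference of 0.97. HSPA1B, another stress-inducible HSP70, had 983, 1373 and 1245 normalized counts in PU libraries, against 13.5, 24.6 and 27.6 in IB libraries. Its near-identical copy HSPA1A was listed at 0 in 11 of the 12 MAVER libraries, so the split of reads between the copies, and with it the HSPA1B value, is uncertain. HSPA4L, an HSP110-type protein, had 42.6, 37.4 and 38.2 in PU libraries and was listed at 0 in all IB libraries, which is at least 37.7-fold higher against the level that 3 reads over the group would give. It was the 1 heat shock member of the 82 that passed the filter only through its PU libraries, with a mean of 3.04 over the other 9, so it had to differ. BAG3, the co-chaperone that links HSP70 to autophagy, had 4189, 4250.4 and 4707 with PU, against 413, 429 and 365 with IB (log2 difference 3.44 ± 0.061, SE; limma adjusted p = 4.44e-36). The nucleotide exchange factors HSPH1 and HSPA4 differed by 2.70 ± 0.041 and 1.41 ± 0.041, the constitutive HSPA8 by 1.11 ± 0.04 and the HSP70 partner ST13 by 1.38 ± 0.043. PU libraries were above IB libraries in each of these genes. The 4 that were lower were BAG1, HSPA14, HSPBP1 and STUB1, with log2 differences of -0.28, -0.42, -0.21 and -0.20. The HSPBP1 call was lost without IB replicate B (adjusted p = 0.0569) and the STUB1 call without IB replicate A (adjusted p = 0.121).

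HSP90 and its co-chaperones were higher in 13 of 19 members and lower in 3 (median 0.79). The constitutive HSP90AB1 had 72368, 72108 and 71544 normalized counts in PU libraries, against 19909.6, 20201 and 20083 in IB libraries. AHSA1, which activates the HSP90 ATPase, had 8411, 8374 and 8108 with PU, against 2183, 2262 and 2086 with IB. The log2 differences were 1.84 ± 0.035 for HSP90AB1 and 1.93 ± 0.041 for AHSA1 (SE), with no overlap of libraries. The immunophilin FKBP4 differed by 1.97 ± 0.042, the HSP70-HSP90 organizer STIP1 by 1.44 ± 0.038, CHORDC1 by 1.94 ± 0.054 and NUDC by 1.15 ± 0.052. The members that fell were FKBP5, PIH1D1 and PPP5C. FKBP5, an immunophilin like FKBP4 and a glucocorticoid receptor target, moved against its relative, at 3371, 3327 and 3259 in PU libraries and 5288, 5342 and 5695 in IB libraries (log2 difference -0.71 ± 0.041, SE). PIH1D1 differed by -0.19 ± 0.064, a call that was lost without IB replicate B (adjusted p = 0.0581) and without the variance trend (adjusted p = 0.0506), and PPP5C by -0.31 ± 0.052.

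Among HSP40 proteins, which hand clients to HSP70, 9 of 18 were higher and 5 lower. DNAJB1 had 12176, 12071 and 12313 normalized counts in PU libraries, against 1541, 1646 and 1593 in IB libraries (2.93 ± 0.041 on the log2 scale, SE). DNAJA4 had 634, 666 and 641 with PU, against 73.2, 60.3 and 58.4 with IB. DNAJB4, DNAJA1, DNAJB6 and DNAJB2 differed by 2.14 ± 0.083, 1.58 ± 0.045, 1.23 ± 0.05 and 1.18 ± 0.072, so the rise covered members of types A and B. The lower members included GAK, DNAJC2, DNAJC9 and DNAJC21, all of type C, with log2 differences of -0.61, -0.56, -0.29 and -0.23. The DNAJC21 call was lost without IB replicate C (adjusted p = 0.0753).

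Chaperonins and mitochondrial chaperones were split, with 9 of 18 higher and 5 lower. The mitochondrial chaperonin pair HSPD1 and HSPE1 were its only members at least 2-fold higher. HSPD1 had 16109.6, 15685 and 14484 normalized counts in PU libraries, against 5892, 5527 and 5928 in IB libraries, and HSPE1 had 1742, 1742 and 1694 with PU, against 624, 582 and 570.3 with IB. Their log2 differences were 1.41 ± 0.042 and 1.54 ± 0.075 (SE), with every PU library above every IB library. CCT4, a subunit of the cytosolic chaperonin, and HSPA9, the mitochondrial HSP70, differed by 0.81 ± 0.039 and 0.64 ± 0.037. TRAP1, the mitochondrial HSP90, was lower at 1700.2, 1607 and 1714 with PU, against 2762, 2944 and 2699.7 with IB (-0.74 ± 0.046, SE). The other lower members were GRPEL1, DNAJA3, CLPP and CLPX, with log2 differences of -0.38, -0.30, -0.24 and -0.19.

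In the list of small heat shock proteins, heat shock factors and ubiquitin genes, 7 of 10 were higher and 2 lower. DEDD2 and the early response gene IER5 differed by 2.48 ± 0.063 and 1.62 ± 0.06 (SE). The transcript of HSF1 itself was lower, at 699, 610.3 and 771 normalized counts in PU libraries and 1029, 945 and 962 in IB libraries (-0.50 ± 0.062, SE; limma adjusted p = 6.44e-09). All PU libraries lay below all IB libraries, and DMSO stood at 940.3 ± 14.4 (SD, n = 3). The other lower member was HSPB11 (-0.44 ± 0.074).

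**Figure D2:**
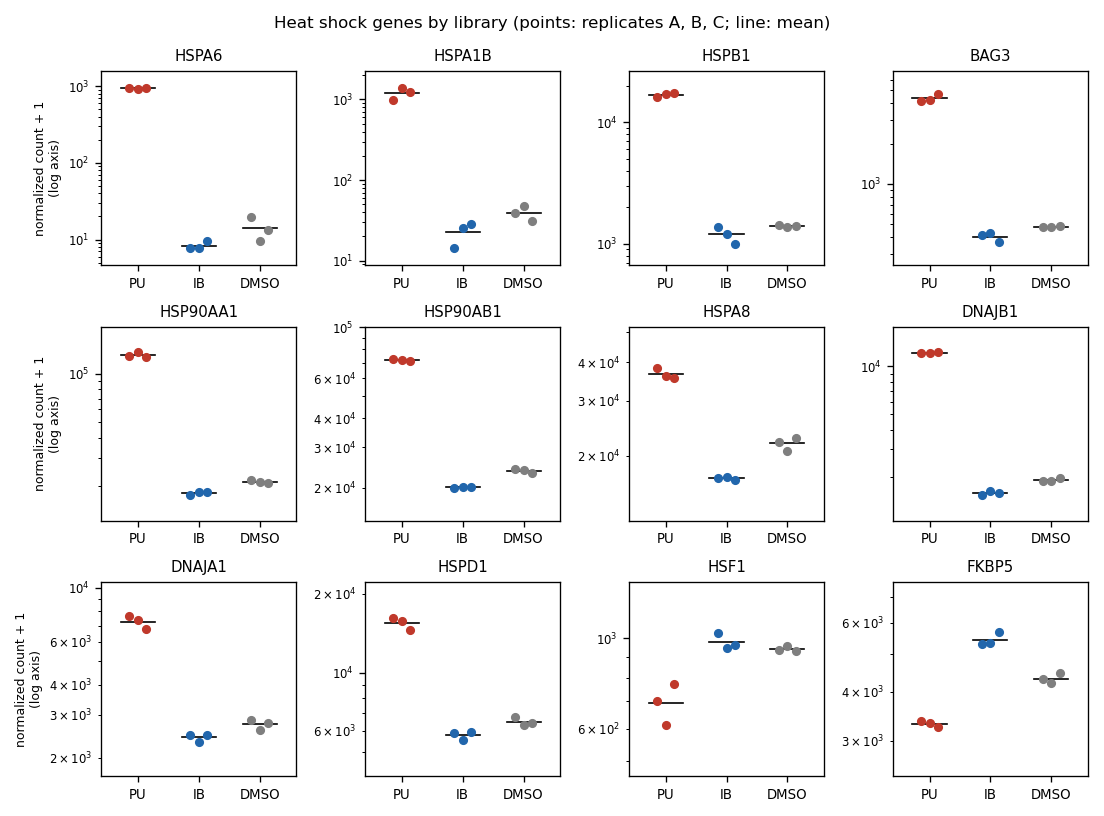
Normalized count plus 1 (log axis) of 12 heat shock genes in each PU, IB and DMSO library of MAVER (points: replicates A, B and C; line: mean of 3). PU libraries lie above IB libraries in 10 panels and below them for HSF1 and FKBP5.

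Several of the named genes fold or modify collagen; they were grouped after their values were seen and form no list of their own. SERPINH1, the collagen chaperone HSP47, had 634, 622 and 674 normalized counts in PU libraries, against 81.9, 105 and 77.5 in IB libraries (2.87 ± 0.14 on the log2 scale, SE). P4HA1, a catalytic subunit of collagen prolyl hydroxylase, had 1435, 1361 and 1261 with PU, against 318, 377 and 376 with IB (1.92 ± 0.074). COL1A1, a chain of type I collagen, had 652, 655 and 733 with PU, against 51.1, 41.3 and 41.4 with IB (3.91 ± 0.14). In all 3 genes the groups were far apart, and DMSO stood at 74.4 ± 10.2, 458 ± 11.6 and 61.1 ± 2.19 (SD, n = 3). P4HA2, a second subunit of the hydroxylase, and the lysyl hydroxylase PLOD1 were chosen after their values were seen and differed by 2.73 ± 0.11 and 2.65 ± 0.061. COL1A1 is also 1 of 14 markers of stromal, epithelial and red cells, whose summed level was 1547 to 1595 with PU, against 559 to 628 with IB, most of it from COL1A1, PECAM1 and EPCAM. Of these markers 7 were at 0 in all 6 libraries, including COL3A1 and DCN, and COL1A2 did not exceed 1.86 normalized counts. The part of other cell types in the COL1A1 difference was not tested.

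The endoplasmic reticulum has its own chaperones, which a separate response controls, and most of those listed here did not follow the cytosolic ones. The list leaves out the collagen folding and modifying genes SERPINH1, P4HA1, P4HA2 and PLOD1, which were higher with PU. Of 23 genes of folding in the endoplasmic reticulum, 16 were lower with PU and 3 higher, namely SEL1L, SYVN1 and ATF6, by 0.48, 0.35 and 0.29 (median of the list -0.17). HSPA5, the HSP70 of this compartment known as BiP, had 3456, 3446 and 3315 normalized counts in PU libraries, against 5565, 5435 and 5518 in IB libraries. MANF, a secreted BiP partner, had 236, 265 and 242 with PU, against 528, 552 and 504 with IB. Every PU library lay below every IB library, and the log2 differences were -0.69 ± 0.039 and -1.09 ± 0.068 (SE). Calreticulin (CALR) and the disulfide isomerase PDIA4 differed by -0.51 ± 0.038 and -0.55 ± 0.044, and the BiP co-chaperones DNAJB9 and SDF2L1 by -1.12 ± 0.089 and -1.01 ± 0.10.

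Oxidative stress genes controlled by NRF2 were mostly higher with PU, 13 of 18 members, and 2 were lower. HMOX1, heme oxygenase, had 2029, 2114 and 2132 normalized counts in PU libraries, against 324, 345 and 327 in IB libraries (2.65 ± 0.06 on the log2 scale, SE; limma adjusted p = 2.88e-32). It was the only member at least 2-fold higher, with every PU library above every IB library. The autophagy receptor SQSTM1, the peroxidase PRDX1 and the ferritin light chain FTL differed by 0.91 ± 0.045, 0.83 ± 0.041 and 0.80 ± 0.04. GCLM, of glutathione synthesis, differed by 0.47 ± 0.077, while TXNRD1, thioredoxin reductase, was not called (0.048 ± 0.039, adjusted p = 0.311). TKT and GSR were the lower members (-0.55 and -0.17 on the log2 scale).

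Genes of the integrated stress response, which answers amino acid shortage among other stresses, were mostly higher. Of 14 members 8 were higher and 2 lower, ATF4 and CEBPG. DDIT4, an inhibitor of mTORC1 signalling, had 2353, 2319 and 2329 normalized counts in PU libraries, against 667, 663 and 629.8 in IB libraries. ASNS, asparagine synthetase, had 2369, 2209 and 2263 with PU, against 939, 867 and 947 with IB. Every PU library lay above every IB library, with log2 differences of 1.84 ± 0.052 and 1.31 ± 0.052 (SE). SESN2, PPP1R15A and ATF5 differed by 1.33 ± 0.11, 1.12 ± 0.081 and 0.79 ± 0.043. The transcript of ATF4, the factor at the centre of this response, was lower at 1952, 2111 and 2207 with PU, against 2590.2, 2889 and 2599 with IB (-0.37 ± 0.049, SE). The CEBPG difference of -0.15 ± 0.056 lost its call without PU replicate B, PU replicate C or IB replicate B (adjusted p = 0.099, 0.0934 and 0.164), and without the variance trend (adjusted p = 0.0837).

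In serine and folate metabolism and amino acid transport, 11 of 18 genes were higher and 7 lower. The enzymes of serine synthesis PHGDH and PSAT1 had the clearest rises beside the cystine transporter SLC7A11. PSAT1 had 2640.3, 2621 and 2679 normalized counts in PU libraries, against 760.0, 759.8 and 755 in IB libraries. PHGDH had 6601, 6650.1 and 6782 with PU, against 2353, 2378 and 2151 with IB. SLC7A11 had 826, 797 and 793 with PU, against 211, 213 and 251 with IB. All 3 were at least 2-fold higher without overlap, at 1.80 ± 0.051, 1.54 ± 0.045 and 1.84 ± 0.073 (SE). The large amino acid transporter SLC7A5, its partner SLC3A2 and the mitochondrial enzyme SHMT2 differed by 0.64 ± 0.045, 0.69 ± 0.045 and 0.44 ± 0.038. The cytosolic folate enzyme MTHFD1 went the other way, at 1805, 1731 and 1838 with PU and 3306, 3442 and 3328 with IB (-0.91 ± 0.042). ALDH1L2, a mitochondrial folate enzyme and 1 of the 15 largest rises, had 732, 644 and 669 with PU, against 80.0, 93.9 and 93.5 with IB.

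The aminoacyl-tRNA synthetases, which charge tRNAs with amino acids, showed no common direction, with 8 of 19 higher and 7 lower. WARS, the tryptophan enzyme, stood apart at 7122, 6463 and 6861 normalized counts in PU libraries, against 1886, 1879 and 2018 in IB libraries (1.82 ± 0.044, SE). SARS differed by 0.61 ± 0.045, and the subunits of the phenylalanine enzyme, FARSA and FARSB, by -0.56 ± 0.051 and -0.54 ± 0.047.

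B cell receptor components changed in both directions, 14 of 29 higher and 10 lower, with a median of -0.054. With equal totals 13 were higher and 14 lower. LAT2, an adaptor phosphorylated after receptor engagement, had 1716, 1672 and 1738 normalized counts in PU libraries, against 426, 429 and 443 in IB libraries. CD72, an inhibitory coreceptor, had 743, 731 and 704 with PU, against 345, 367 and 289.9 with IB. PRKCB, protein kinase C beta, had 1750.1, 1835 and 1771 with PU, against 4005, 4194 and 4091 with IB. The groups did not overlap in these genes, LAT2 and CD72 being higher with PU (1.98 ± 0.062 and 1.13 ± 0.068, SE) and PRKCB lower (-1.20 ± 0.043). DMSO levels were 708 ± 37.5 for LAT2, 876 ± 16.0 for CD72 and 1956 ± 32.0 for PRKCB (SD, n = 3). For PRKCB the PU level lay near DMSO and the IB level apart, whereas for LAT2 the PU level lay above DMSO and the IB level below it.

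Further along the pathway, the GTPase RAC2 and the inhibitory receptor FCGR2B differed by 0.77 ± 0.047 and 0.87 ± 0.078 (log2, SE). The kinase LYN differed by 0.51 ± 0.042, SYK by -0.24 ± 0.038 and the receptor subunit CD79B by -0.42 ± 0.04. CD79B had 4545, 4582 and 4703 normalized counts in PU libraries, against 6218, 6315 and 5988 in IB libraries, with every PU library lower.

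Immediate early and ERK feedback genes, which follow receptor signals within a short time, were higher in 12 of 21 members and lower in 6 (median 0.39). EGR1, a transcription factor of this group, had 18.2, 21.0 and 26.1 normalized counts in PU libraries, against 0.963, 0 and 0 in IB libraries. These are 80 reads with PU and 1 read with IB, a ratio of 62.8 with a 95% interval of 11 to 2510 that covers counting error only. NR4A1, a nuclear receptor induced by antigen receptor signals, had 241, 274 and 329 with PU, against 127, 141 and 124 with IB. RGS2, a regulator of G protein signalling, had 1365, 1339 and 1166 with PU, against 130.0, 119.6 and 96.6 with IB. PU libraries were above IB libraries in all 3 genes. DMSO levels of 33.2 ± 9.09, 274 ± 23.1 and 237 ± 25.7 (SD, n = 3) were above the IB mean in all 3 genes.

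JUN, a subunit of AP-1, had 90.0, 99.2 and 101 normalized counts in PU libraries, against 26.0, 14.5 and 14.9 in IB libraries (2.37 ± 0.22 on the log2 scale, SE). NR4A3 and the ERK phosphatase DUSP5 differed by 1.39 ± 0.16 and 1.76 ± 0.33. EGR2, 1 of the 12 higher members, differed by 2.74 ± 0.45, but it passed the filter only through its PU libraries. Its means were 1.67 with IB, 14.7 with DMSO and 12.3 with KPT, so its difference is no separate result. In the opposite direction to JUN, IER2 had 85.1, 101 and 94.0 with PU and 212, 184 and 171 with IB (-1.01 ± 0.10), and JUNB differed by -0.71 ± 0.083.

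FOXO factors and their targets were higher in 14 of 26 members and lower in 3, which were RAG1, RAG2 and INSR (-1.73, -1.88 and -0.29). With equal totals 5 were lower. SESN3, a sestrin, had 557, 496 and 439 normalized counts in PU libraries, against 186, 139.7 and 169 in IB libraries. CCNG2, an unusual cyclin that slows proliferation, had 652, 675 and 674 with PU, against 299.6, 313 and 298 with IB. The autophagy kinase ULK1 and the autophagy protein GABARAPL1 differed by 1.08 ± 0.081 and 1.85 ± 0.18, beside 1.59 ± 0.10 for SESN3 and 1.13 ± 0.067 for CCNG2 (log2, SE). FOXO1 itself was not called (-0.017 ± 0.055, limma adjusted p = 0.811).

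The recombinase genes RAG1 and RAG2, which cut antigen receptor loci in precursor B cells, were among the 15 largest falls. RAG1 had 53.5, 52.1 and 27.9 normalized counts in PU libraries, against 134, 152 and 149 in IB libraries (-1.73 ± 0.20, SE; limma adjusted p = 1.12e-09). RAG2 had 14.6, 23.8 and 26.1 with PU, against 77.1, 74.9 and 87.1 with IB (-1.88 ± 0.23). The groups did not overlap, and DMSO, at 19.6 ± 4.51 and 14.3 ± 3.98 (SD, n = 3), was below every PU and IB mean.

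Targets of NF-kB were lower with PU in 13 of 23 members and higher in 5, CCL22, CD86, STAT5A, REL and TNIP1 (median -0.26). The 5 differed by 2.42, 1.10, 0.37, 0.27 and 0.16 on the log2 scale. From DMSO, CCL22 and CD86 differed by 0.11 ± 0.42 and -0.19 ± 0.22 with PU (SE), neither called. With IB they differed from DMSO by -2.32 ± 0.42 and -1.29 ± 0.22. STAT5A was above DMSO with each treatment, by 1.08 with PU and 0.71 with IB. BIRC3, an inhibitor of apoptosis, had 1045, 1147 and 982 normalized counts in PU libraries, against 2695, 2819 and 2889.8 in IB libraries (-1.41 ± 0.053 on the log2 scale, SE). NFKBIA, the NF-kB inhibitor IkB alpha, had 499.9, 500.3 and 566 with PU, against 847, 873 and 806 with IB (-0.69 ± 0.059). In both genes every PU library was lower, and DMSO stood at 1849 ± 51.9 and 873 ± 25.1 (SD, n = 3). TNFAIP3, the deubiquitinase A20, NFKB2 and RELB differed by -0.78 ± 0.068, -0.69 ± 0.05 and -0.52 ± 0.064. STAT5A and TNIP1 lost their calls without PU replicate A (adjusted p = 0.0666) and without PU replicate C (adjusted p = 0.063), and TNIP1 also with equal totals (adjusted p = 0.0511).

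**Figure D3:**
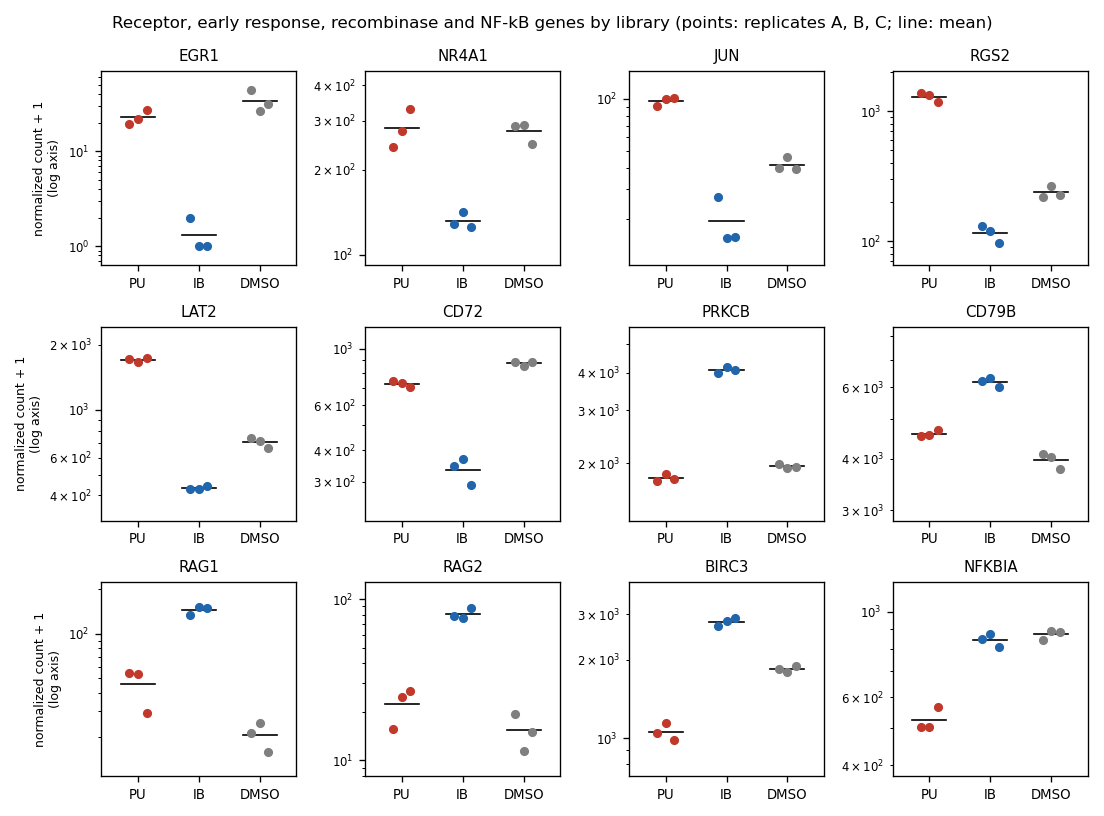
Normalized count plus 1 (log axis) of 12 genes of receptor signalling, the early response, recombination and NF-kB in each PU, IB and DMSO library of MAVER (points: replicates A, B and C; line: mean of 3). PU libraries lie above IB libraries in the panels from EGR1 to CD72 and below them in the panels from PRKCB to NFKBIA.

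DNA replication genes were lower almost without exception, 39 of 40 members, and 1, the histone mRNA binding protein SLBP, was higher (0.18 ± 0.051). The median log2 difference of the list was -0.66. MCM7, a subunit of the replicative helicase, had 8187, 8405 and 8559 normalized counts in PU libraries, against 17228, 17775 and 16800.1 in IB libraries. E2F1, the transcription factor of S phase entry, had 549, 540.0 and 542 with PU, against 1323, 1393 and 1239 with IB. CCNE2, a cyclin E that drives this step, had 99.7, 111 and 96.8 with PU, against 299.6, 295 and 321 with IB. The groups were apart in all 3, with log2 differences of -1.04 ± 0.036, -1.28 ± 0.053 and -1.57 ± 0.085 (SE). The other cyclin E gene, CCNE1, differed by -1.62 ± 0.14, MCM4 by -1.14 ± 0.049, MCM6 by -0.97 ± 0.045, the clamp PCNA by -0.95 ± 0.045 and the ribonucleotide reductase subunit RRM2 by -0.92 ± 0.047.

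Mitotic genes had no common direction. Of 40 members 11 were higher (27.5%, as over all genes), 9 lower (22.5%, against 27.6%) and 20 not called, and 0 differed by 2-fold. With equal totals 6 were higher and 11 lower. CCNB2, a cyclin B, differed by 0.28 ± 0.047 and UBE2C by 0.33 ± 0.059, against -0.34 ± 0.046 for CDC20 and -0.37 ± 0.054 for MAD2L1 (log2, SE).

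Genes linked to MYC and to ribosome biogenesis were lower in 35 of 36 members and higher in 0 (median -0.60). Fibrillarin (FBL) was the member not called (-0.069 ± 0.039, adjusted p = 0.135), and with equal totals it was called lower as well (adjusted p = 0.0081). NOLC1, a nucleolar phosphoprotein, had 3565, 3506 and 3609 normalized counts in PU libraries, against 6507, 6688 and 6791 in IB libraries. TFRC, the transferrin receptor and a MYC target, had 1847, 1742 and 1711 with PU, against 3997, 3736 and 4256 with IB. The groups did not overlap, and the differences were -0.90 ± 0.039 and -1.18 ± 0.047 (log2, SE). The pyrimidine synthesis enzyme CAD, the helicase DDX21 and MYBBP1A differed by -0.87 ± 0.047, -0.71 ± 0.041 and -1.19 ± 0.069. CD3EAP, a subunit of RNA polymerase I and 1 of the 15 largest falls, had 266, 259.5 and 269.9 with PU, against 742, 845 and 759 with IB. MYC itself differed less, at 4905, 5061 and 5316 with PU and 6057, 6289.9 and 5988 with IB (-0.26 ± 0.04, SE).

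Transcripts of ribosomal proteins, the products that these factors assemble, went the other way by small margins. Of 48 members 43 were higher with PU and 0 lower (median 0.21), and 0 reached 2-fold. The lowest value, -0.53, was not called, and in 1 member every PU library lay below every IB library. RPL3 had 19184, 18443 and 19420.3 normalized counts in PU libraries, against 15451, 15380.1 and 14599.6 in IB libraries (0.33 ± 0.038, SE). RPL12, RPL10A and RPL18 differed by 0.36 ± 0.047, 0.34 ± 0.044 and 0.29 ± 0.037. Equal totals left 36 higher and 0 lower. Ribosomal protein genes share reads with pseudogene copies, so single values are uncertain.

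Cyclin D and inhibitors of cyclin-dependent kinases were mostly higher, 7 of 11, and CCND1 and CDK4 were lower. CCND1, the oncogene of mantle cell lymphoma, had 41819, 42858 and 44282 normalized counts in PU libraries, against 57590.4, 56868 and 57088 in IB libraries (-0.41 ± 0.036 on the log2 scale, SE). CDKN1A, the inhibitor p21, had 513, 551 and 576 with PU, against 275, 317 and 263 with IB (0.94 ± 0.071). The groups did not overlap in either gene, and DMSO stood at 57958 ± 956 and 629.9 ± 6.30 (SD, n = 3). CDK6 differed by 1.10 ± 0.28 and CDK4 by -0.38 ± 0.04.

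Of p53 and its targets 12 of 25 were higher and 6 lower. AEN, a nuclease induced by p53, had 570.4, 598 and 603 normalized counts in PU libraries, against 1460.3, 1431 and 1407 in IB libraries (-1.28 ± 0.057, SE). CCNG1 and TP53INP1 differed in the opposite direction, by 0.72 ± 0.06 and 0.62 ± 0.05. The BCL2 family, which sets the threshold for cell death, had 3 of 15 higher, 3 lower and 9 not called. These are 20% each, below the shares over all genes (27.5% and 27.6%). BCL2 had 13777, 13457 and 13314 with PU, against 14650.2, 14122 and 14917 with IB (-0.11 ± 0.036, SE), a call that was lost without IB replicate C (adjusted p = 0.0546). MCL1, BCL2L1 and PMAIP1 differed by 0.11 ± 0.041, 0.15 ± 0.05 and 0.13 ± 0.049, and with equal totals these 3 calls were lost (adjusted p = 0.176, 0.0722 and 0.14), leaving 0 higher and 6 lower. Leaving out 1 library also ended the MCL1 call (PU replicate B or IB replicate B, adjusted p = 0.119 and 0.0725), the BCL2L1 call (IB replicate C, adjusted p = 0.0933) and the PMAIP1 call (PU replicate B or IB replicate A, adjusted p = 0.148 and 0.12), the last also without the variance trend (adjusted p = 0.0736). The BH3-only genes HRK and BBC3 differed by -0.79 ± 0.21 and -0.51 ± 0.19, and BBC3 lost its call without PU replicate A (adjusted p = 0.304) or IB replicate B (adjusted p = 0.0541), with edgeR or DESeq2 (adjusted p = 0.0687 and 0.0981), with no filter (adjusted p = 0.0674) and without the variance trend (adjusted p = 0.0546).

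Genes of cholesterol and fatty acid synthesis were lower in 24 of 29 members and higher in 4, HSD17B7, SC5D, PMVK and SREBF2 (0.52, 0.27, 0.23 and 0.19 on the log2 scale). FASN, fatty acid synthase, had 1582, 1588 and 1889 normalized counts in PU libraries, against 4182, 3884 and 3642 in IB libraries. ELOVL6, a fatty acid elongase, had 209, 200.0 and 237 with PU, against 527, 533 and 589 with IB. All PU values lay below all IB values, with log2 differences of -1.21 ± 0.057 and -1.35 ± 0.09 (SE). DMSO was at 3760.2 ± 207 for FASN, near IB, and at 248 ± 18.2 for ELOVL6, nearer to PU (SD, n = 3). The desaturase SCD and squalene epoxidase SQLE differed by -0.84 ± 0.043 and -0.91 ± 0.073, while SREBF2, the sterol-regulated transcription factor, differed by 0.19 ± 0.043. The SC5D call (0.27 ± 0.084) was lost without PU replicate B (adjusted p = 0.11).

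Nuclear transport genes, the system that includes the selinexor target, were lower in 25 of 33 members and higher in 4, RANGAP1, TNPO3, XPOT and IPO8 (median -0.29). The importins and exporters among them, TNPO3, XPOT and IPO8, differed by 0.43, 0.29 and 0.21, and IPO4 and NUP153 by -0.75 ± 0.05 and -0.63 ± 0.04. RANGAP1, which activates the Ran GTPase, had 7045, 6652 and 7110.1 normalized counts in PU libraries, against 3782, 3701 and 3407 in IB libraries (0.93 ± 0.048, SE). XPO5, an exporter of microRNA precursors, had 1185, 1141 and 1036 with PU, against 1906, 1967 and 1985 with IB (-0.80 ± 0.051). XPO1 itself had 4479, 4168 and 4132 with PU, against 4878, 4770.2 and 5247 with IB. No library overlapped in these genes, and the XPO1 difference was -0.22 ± 0.042 (SE; limma adjusted p = 2.07e-05).

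Lysosome and autophagy genes were higher in 22 of 33 members and lower in 1, UVRAG at -0.27 (median 0.26). MAP1LC3B, the autophagosome protein LC3B, had 1923, 1843 and 1825 normalized counts in PU libraries, against 1097, 1010.1 and 1116 in IB libraries (0.79 ± 0.051, SE). The protease gene CTSD had 1635, 1693 and 1837 with PU, against 1145, 1020.2 and 931 with IB (0.74 ± 0.059), again without overlap. Proteasome subunits shifted less, with 13 of 30 higher and 2 lower (median 0.082), and with equal totals 8 were higher and 4 lower. PSMD12, PSMD7 and PSMD11 differed by 0.31 ± 0.055, 0.28 ± 0.047 and 0.25 ± 0.041. The lower members were PSMA2 (-0.13), whose call was lost without PU replicate C (adjusted p = 0.228) or IB replicate C (adjusted p = 0.0531) and without the variance trend (adjusted p = 0.0728), and PSMD2 (-0.12), whose call was lost without PU replicate B (adjusted p = 0.0676) or IB replicate B (adjusted p = 0.0757).

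B cell and mantle cell identity genes were lower with PU in 14 of 28 members (50%, against 27.6% of all genes). They were higher in 8 (28.6%, near the 27.5% of all genes). MS4A1, which encodes CD20, had 17759, 17285 and 16274 normalized counts in PU libraries, against 9787, 9759.5 and 9771 in IB libraries (0.81 ± 0.04, SE). CD5, a marker of mantle cell lymphoma, had 384, 406 and 423 with PU, against 154, 161 and 147 with IB (1.39 ± 0.09). The B cell transcription factors TCF3 and POU2AF1 were lower, POU2AF1 at 2369, 2284 and 2672 with PU and 4767, 4672 and 4722 with IB (-0.95 ± 0.046) and TCF3 by -1.05 ± 0.046. None of these libraries overlapped, and DMSO stood at 12961 ± 626, 293 ± 18.8 and 2535 ± 23.6 for MS4A1, CD5 and POU2AF1 (SD, n = 3). PAX5 differed by -0.47 ± 0.046 and IRF4 by 0.44 ± 0.042.

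Of 14 MHC genes tested 8 were lower and 3 higher, the class I genes HLA-B and HLA-C among them (median -0.48). HLA-DQA1, a class II chain, had 834, 786 and 832 normalized counts in PU libraries, against 1848, 1867 and 1857 in IB libraries (-1.18 ± 0.046, SE). CIITA, the master regulator of class II genes, had 854, 919 and 1012 with PU, against 1661, 1736 and 1630.2 with IB (-0.85 ± 0.057). HLA-DQB1 and HLA-DPB1 differed by -0.98 ± 0.042 and -0.64 ± 0.052, HLA-B by 0.22 ± 0.05, and B2M was not called (0.025 ± 0.041, adjusted p = 0.632). HLA-C (0.18 ± 0.07) lost its call with equal totals (adjusted p = 0.115) and without PU replicate B, PU replicate C, IB replicate B or IB replicate C (adjusted p = 0.0685 to 0.0986), with DESeq2 (adjusted p = 0.0564) and with reads thinned to the shallowest library (adjusted p = 0.0902). HLA genes resemble one another and several were too low to test, so these values are uncertain.

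**Figure D4:**
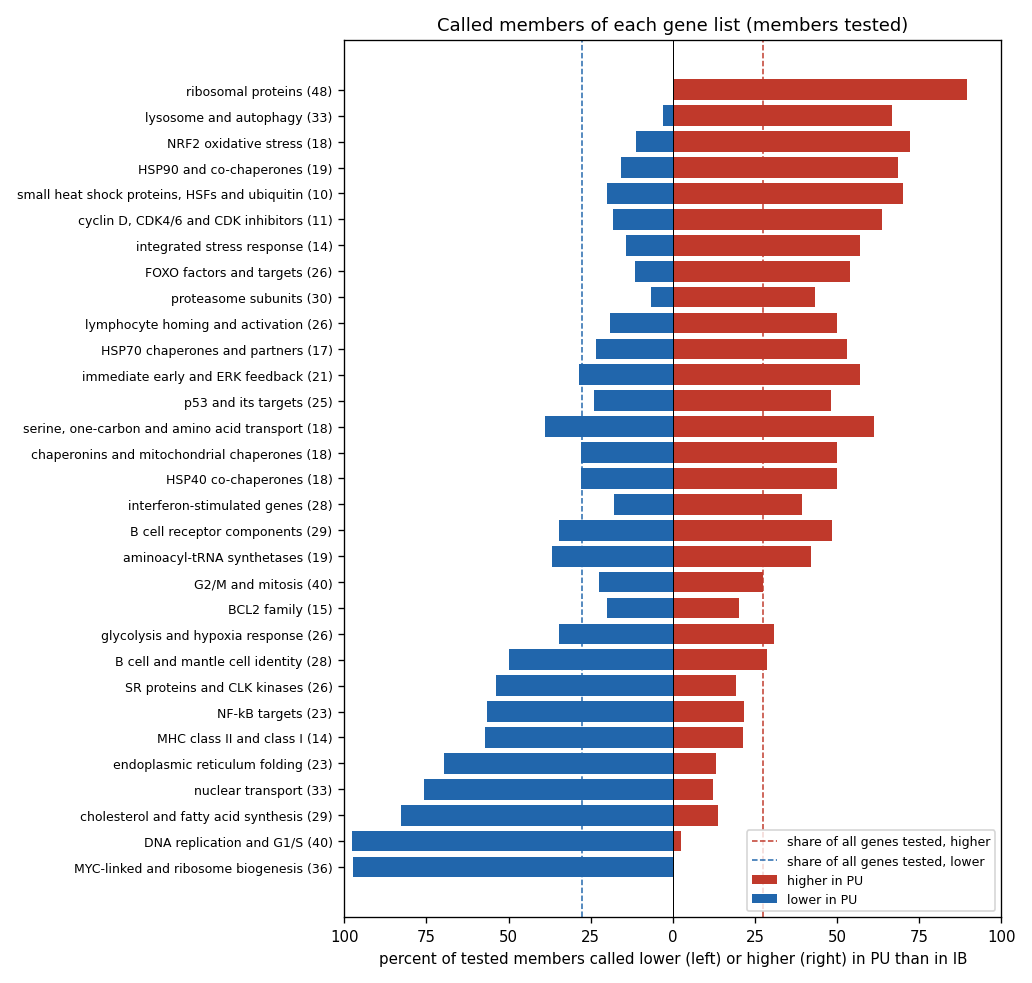
Share of the tested members of 31 gene lists called lower (blue, left) or higher (red, right) with PU than with IB, in percent, with the number tested in parentheses; dashed lines mark the shares over all genes, 27.6% lower and 27.5% higher. Ribosomal protein genes lie at the top (89.6% higher) and genes linked to MYC and ribosome biogenesis at the bottom (97.2% lower).

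Beyond the lists, the largest rises included secreted and signalling proteins. PGF, placental growth factor, had 203, 223 and 231 normalized counts in PU libraries, against 0.963, 4.47 and 5.31 in IB libraries. LCN10, a lipocalin, had 1116, 1156 and 1152 with PU, against 74.2, 68.2 and 63.7 with IB. DOK2, an adaptor that restrains tyrosine kinase signals, had 373, 377 and 382 with PU, against 23.1, 39.1 and 38.2 with IB. Every PU library was above every IB library, and the log2 differences were 5.75 ± 0.40, 4.04 ± 0.12 and 3.49 ± 0.17 (SE). The membrane transporter gene SPNS3 and the transcription factor gene MYRF differed by 4.12 ± 0.43 and 3.27 ± 0.25. PGF and SPNS3 passed the filter only through their PU libraries, with means of 5.41 and 3.37 over the other 9 MAVER libraries, so they had to differ. The same held for 51 of the 11099 genes tested and for 32 of the 361 called at least 2-fold higher.

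The largest falls included enzymes acting on DNA and RNA. UNG, the glycosylase that removes uracil from DNA, had 557, 505 and 514 normalized counts in PU libraries, against 1716, 1799 and 1673 in IB libraries. DDX46, a helicase of the spliceosome, had 578, 647 and 601 with PU, against 1656, 1721 and 1773 with IB. ATAD3B, a mitochondrial membrane ATPase, had 83.9, 75.4 and 83.8 with PU, against 314, 361 and 273 with IB. All PU libraries were below all IB libraries, with log2 differences of -1.72 ± 0.054, -1.50 ± 0.053 and -1.94 ± 0.11 (SE). The pseudouridine synthase PUS7, the mitochondrial RNA methyltransferase MRM1 and the zinc finger genes ZNF367 and HIVEP3 differed by -1.48 ± 0.092, -1.62 ± 0.12, -1.44 ± 0.082 and -1.52 ± 0.13, and FAM222A and EPB41L4B by -1.67 ± 0.18 and -1.66 ± 0.20.

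Setting each treatment beside DMSO shows on which side of the solvent level a difference lies. Against DMSO 6121 genes (55.1%) were called with PU and 2197 (19.8%) with IB, in comparisons that share the DMSO libraries with each other and the PU or IB libraries with the direct one. For HSP90AA1 the log2 difference from DMSO was 2.61 ± 0.038 with PU and -0.24 ± 0.038 with IB (SE), so the levels lay on opposite sides of DMSO. HMOX1 was likewise at 2.15 ± 0.06 with PU and -0.50 ± 0.06 with IB, and LAT2 at 1.27 ± 0.062 with PU and -0.71 ± 0.062 with IB. For MCM7 the values were -0.96 ± 0.036 with PU and 0.08 ± 0.036 with IB, and for NOLC1 -0.88 ± 0.039 with PU and 0.023 ± 0.039 with IB. In these 2 genes the distance between treatments lay mainly between PU and DMSO. The reverse held for PRKCB, at -0.13 ± 0.043 with PU and 1.07 ± 0.043 with IB, and for CD72, at -0.27 ± 0.068 with PU and -1.40 ± 0.068 with IB. TP53INP1 was above DMSO with each treatment, by 2.20 ± 0.05 with PU and 1.58 ± 0.05 with IB.

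**Figure D5:**
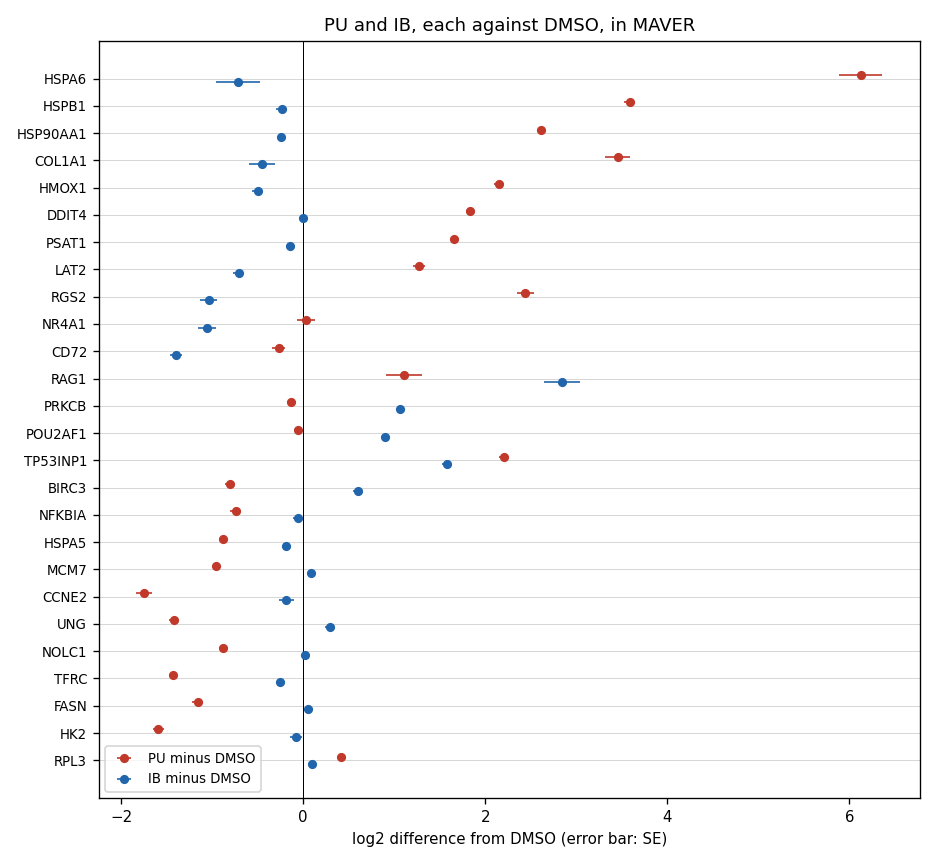
Log2 difference from DMSO of 26 genes named in the text, with PU (red) and with IB (blue); points are limma estimates from 3 libraries a group and bars their SE. The red points of HSPA6, HSPB1 and COL1A1 lie beyond 3 while their blue points lie below 0; the blue points of PRKCB and POU2AF1 lie near 1 while their red points lie near 0.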

How the data were processed

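The authors deposited normalized counts per gene for MAVER, whole reads divided by 1 factor per library, so the unit is a signal and not a raw count. Whole reads were recovered for 100% of values within 0.01 read. The deposited values come from a TruSeq stranded kit and 50 bp single-end reads on a HiSeq instrument, per the labels' protocols. STAR, Cufflinks, DESeq2, FastQC and hg19 are named, per the submitters' processing notes, without versions. What counted the reads, whether strand was used and which annotation served were not given in the sources used here, so antisense and near-identical genes are uncertain.

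From these values the main test was computed with limma 3.58.1 in R 4.3.3 (lmFit, eBayes with a variance trend) on log2(normalized count + 1), with the 4 MAVER groups in 1 fit and no covariate. Genes entered with a mean of 10 or more across the 12 libraries, and p was adjusted by Benjamini-Hochberg over all 11099 genes. A fold change on this scale understates the change of low genes. Adjusted p-values in the text come from this test unless an alternative is named. Alternatives were other pseudocounts, filters and scalings, edgeR 4.0.16, DESeq2 1.42.0, thinning and each replicate left out. The fit was tested on simulated data.

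Members and gene lists were chosen with earlier results of these data known. The rule named 150 genes: the 15 largest rises and 15 largest falls whose mean reached 50 and whose libraries did not overlap, the 4 smallest p per list, and fixed genes. Another 95 were named after their values were seen, namely P4HA2, PLOD1, members of a list direction with 5 or fewer calls, and further examples beside the 4 of a list. Replicate letters were not used to pair the libraries in the main test. Of the gene names 28 had been altered to dates, 17 of them tested, and these are not named. A few members of the lists are not reported here. The 6 libraries of the cell line JEKO1 were not used. Promoters came from RefSeq, matched by symbol or synonym, and hg19 coordinates were not used.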

Additional observations from a re-analysis of the deposited data

How the results depend on the processing

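Between 5484 and 6267 genes were called over the alternatives, and each alternative kept 87.9% to 99.9% of the 6118 calls of the main test, with 0 of opposite sign. Leaving out 1 replicate gave 5484 calls (without PU replicate A) to 5721 (without PU replicate C), edgeR 6267 and DESeq2 5652. With the replicate block 6088 genes were called. Same-letter PU and IB libraries correlated at -0.0117, -0.00817 and -0.0918 in their deviations from the group means, and those of different letters at -0.0626 to 0.0663. No pairing by letter was visible between these groups, but whether same-letter libraries were prepared together cannot be told from this. At least 2-fold rises numbered 572 with no filter and 231 with a mean of at least 50, against 361, and 2-fold falls 288 and 95, against 174; the first setting tests 16640 genes and the second 9544. With equal totals the median log2 difference was -0.0423, and 42% of calls were higher, against 49.9%. Of 245 named genes 227 kept their call under every alternative run and 18 did not, and 0 called values reversed. Another 59 values called in neither fit changed sign. Of 1292 list counts 18 moved by over 1.5 times. Depth limits low genes such as EGR1, EGR2 and HSPA4L, which rest on few reads.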

Other observations

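In a list of SR proteins, heterogeneous nuclear ribonucleoproteins and kinases of SR proteins, 14 of 26 splicing regulators were lower with PU. The 5 higher were the kinases CLK1, CLK4, SRPK2 and CLK3 and the SR protein SRSF5. Their log2 differences, PU minus IB, were 0.84, 0.76, 0.59, 0.52 and 0.41. The kinases that phosphorylate SR proteins therefore stood on both sides. SRPK1 had 1315, 1320.3 and 1300.3 normalized counts in PU libraries, against 2299, 2131 and 2255 in IB libraries, and SRPK2 had 1559, 1559 and 1512 with PU, against 1017, 1028 and 1031 with IB. The groups did not overlap in either gene, with differences of -0.76 ± 0.045 for SRPK1 and 0.59 ± 0.049 for SRPK2 (SE). HNRNPDL and HNRNPH1 differed by -0.67 ± 0.056 and -0.55 ± 0.041. In glycolysis and the hypoxia response 8 of 26 members were higher (30.8%) and 9 lower (34.6%), near the shares over all genes (27.5% and 27.6%). At least 2-fold differences were called for 2 higher members, P4HA1 (1.92 ± 0.074) among them, and for 1 lower member. The hexokinase HK2 had 377, 385 and 352 with PU, against 1053, 1049 and 1081 with IB (-1.51 ± 0.063), and LDHA, lactate dehydrogenase, and the phosphofructokinase PFKP differed by -0.71 ± 0.041 and -0.87 ± 0.092.

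Interferon-stimulated genes were higher with PU in 11 of 28 members and lower in 5, USP18, IFIH1, IFIT3, MX2 and OAS2. BST2, the virus-tethering protein tetherin, had 4002, 4259 and 4198 normalized counts in PU libraries, against 793, 755 and 701 in IB libraries (2.47 ± 0.055 on the log2 scale, SE), and was the only member at least 2-fold higher. The RNA sensor IFIH1 had 291, 308 and 299.7 with PU, against 525, 549.8 and 579 with IB (-0.88 ± 0.066). These genes moved in opposite directions without overlap between the groups. STAT2 and TRIM22 differed by 0.75 ± 0.056 and 0.41 ± 0.048, and USP18, IFIT3, MX2 and OAS2 by -0.89, -0.85, -0.43 and -0.25. Among homing and activation genes 13 of 26 were higher and 5 lower, S1PR2, CD69, IL4R, CD40 and GPR183 (-1.34, -0.64, -0.40, -0.34 and -0.21). IL10RA, an interleukin receptor chain, had 623, 599 and 608 with PU, against 247, 236 and 247 with IB (1.32 ± 0.075), and TNFRSF13C, the receptor for the survival factor BAFF, and the integrin ITGAL differed by 0.91 ± 0.094 and 0.82 ± 0.11.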
